A study of Mus musculus with 4 samples.

Results

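The Ly6 surface antigen family of this series was taken as 8 named mouse genes, Ly6a, Ly6c1, Ly6c2, Ly6d, Ly6e, Ly6g, Ly6i and Ly6k. A row was a member if its Ensembl identifier, with the version removed, mapped to one of these symbols. All 8 listed genes had a row among the 18276 genes of the expression table. Ly6 proteins are small, cysteine-rich proteins that adopt the fold shared with the urokinase receptor and are held on the outer leaflet of the cell membrane by a GPI anchor. Several are standard sorting markers of bone marrow: Ly6C (Ly6c1 and Ly6c2) for inflammatory monocytes, Ly6G for neutrophils, Sca-1 (Ly6a) for stem and multipotent progenitor cells and Ly6d for early B-lineage commitment. Members are known to be interferon-inducible in several cell types, and the locus holds recent tandem copies that differ between inbred mouse strains.

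The libraries were polyA RNA-seq of bone marrow cells sorted as osteoclast progenitors, that is, cells lacking B220, CD3 and Mac-1 (Itgam) and carrying CD115 (Csf1r), the receptor for macrophage colony-stimulating factor. The Ptip_KO group (2 libraries) came from mice with the genotype Ptip flox/flox Mx-1Cre, and the WT group (2 libraries) from WT Mx-1Cre mice, so both groups carried the Cre transgene. Ptip (gene symbol Paxip1) encodes a protein that works with enzymes methylating histone H3, and Mx-1Cre is driven by an interferon-inducible promoter that acts in many blood and stromal cell types. All mice were labelled strain B6;129, a mixed background; the labels gave no age or sex, and the Ly6 alleles carried by each mouse were not analysed here. The replicates were described as independent, but no label tied a library to a separate animal, so p-values measure the spread between these libraries, which may be technical.

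Paxip1 was at 5.10 and 3.73 CPM (read counts scaled to a common library size) in Ptip_KO against 106 and 103 CPM in WT. Of the genes behind the sort, Csf1r had 825 and 782 CPM in Ptip_KO against 677 and 606 CPM in WT, and Itgam had 35.1 to 42.1 CPM and Cd3e 0 to 0.190 CPM over the 4 libraries. Recovered totals were 67592972 to 77773478 reads per library. WT replicate 2 stood apart: it had 298 CPM of the X-inactivation transcript Xist, against at most 0.0814 CPM in each other library. It had 0.101 CPM of the Y-linked Ddx3y, against at least 69.1 CPM in each other library. This is the pattern of female cells, while WT replicate 1 and both Ptip_KO libraries had the male pattern. The spread within WT therefore includes a difference of sex. Sex is also unbalanced between the groups, so each difference between Ptip_KO and WT mixes genotype in part with sex. For several members and gene lists, but not for all, the difference without WT replicate 2 is given too. A fit with a library left out has a single library in that group, so its spread comes from the other pair alone. For such fits only the size of the difference is given. These are bulk samples, in which fewer cells of a type and less RNA per cell cannot be told apart.

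The 8 members lay on mouse chromosome 15 (GRCm38, GENCODE M21) within 397 kb, from 74762056 to 75159126, in the order Ly6d, Ly6k, Ly6e, Ly6i, Ly6a, Ly6c1, Ly6c2 and Ly6g. Ly6e and Ly6g were on the plus strand and the others on the minus strand, and all 8 were annotated as protein coding. Several members are close copies, which bears on how reads were divided between them. The coding sequences of Ly6c1 and Ly6c2 were 97.7% identical, with 9 differences in 393 bases, and their transcripts shared an unbroken identical stretch of 188 bases. The next closest pair, Ly6a and Ly6i, was 86.3% identical, whereas Ly6e was 57.2% identical to Ly6c2. The first 150 coding bases of 3 members are shown because they hold 6 of the 9 coding bases that separate Ly6c1 from Ly6c2. These 6 are only some of the letters by which a read can be assigned to either gene. Capitals in Ly6c1 and Ly6c2 mark the bases that differ between them, and capitals in Ly6a mark its 16 differences from Ly6c2. The sequences are from GENCODE M21 transcripts and run 5′ to 3′ from the start codon.
Ly6c1: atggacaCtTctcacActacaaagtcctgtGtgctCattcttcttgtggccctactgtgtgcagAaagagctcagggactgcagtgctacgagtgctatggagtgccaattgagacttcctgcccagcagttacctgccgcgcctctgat
Ly6c2: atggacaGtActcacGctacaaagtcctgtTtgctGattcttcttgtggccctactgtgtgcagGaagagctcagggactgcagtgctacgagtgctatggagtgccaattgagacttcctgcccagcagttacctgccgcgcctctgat
Ly6a: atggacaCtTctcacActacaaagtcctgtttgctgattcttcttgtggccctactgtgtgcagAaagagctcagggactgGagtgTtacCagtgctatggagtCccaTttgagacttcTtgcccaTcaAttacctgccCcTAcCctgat

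After the sixth marked base of Ly6c1 and Ly6c2, the rest of that stretch is the same in both, while Ly6a goes on differing. Over all annotated transcripts, 10.1% of the 100-base windows of Ly6c1 and 5.81% of those of Ly6c2 occurred in another gene's transcripts. For Ly6a this share was 1.45%, and it was 0% for Ly6d, Ly6e, Ly6g, Ly6i and Ly6k. The values of Ly6c1 are therefore uncertain, since reads of its far more abundant copy could be divided with it. Of its 100-base windows, 159 were shared with Ly6c2 and 19 with Ly6a. At several of the marked positions Ly6a carries the Ly6c1 base, so those letters do not separate Ly6c1 from Ly6a. Ly6k overlapped the antisense gene Gm17189 on the opposite strand, and the strand setting of the authors' counting was not given in the sources used here.

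Upstream sequence from RefSeq (GRCm38.p6) was matched by symbol for Ly6c1, Ly6c2 and Ly6g. Ly6a, Ly6d, Ly6e, Ly6i and Ly6k had no entry. A further copy in the cluster, named Ly6a2 in RefSeq and I830127L07Rik in the expression table, had one too. The 250 bases upstream of the annotated start are shown for 3 of these copies because the genes differ widely in expression. In Ly6c1 and Ly6c2, capitals mark bases that differ between the 2 or could not be aligned. In Ly6a2, capitals mark bases that differ from Ly6c2 or could not be aligned. The regions, all on the minus strand, are chr15:75048838-75049087 for Ly6c1, chr15:75111972-75112221 for Ly6c2 and chr15:75135129-75135378 for Ly6a2.
Ly6c1: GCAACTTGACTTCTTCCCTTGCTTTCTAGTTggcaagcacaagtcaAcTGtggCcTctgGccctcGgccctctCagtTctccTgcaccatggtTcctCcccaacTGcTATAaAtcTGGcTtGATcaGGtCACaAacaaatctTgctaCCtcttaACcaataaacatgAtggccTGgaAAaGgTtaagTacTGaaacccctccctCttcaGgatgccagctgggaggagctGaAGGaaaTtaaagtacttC
Ly6c2: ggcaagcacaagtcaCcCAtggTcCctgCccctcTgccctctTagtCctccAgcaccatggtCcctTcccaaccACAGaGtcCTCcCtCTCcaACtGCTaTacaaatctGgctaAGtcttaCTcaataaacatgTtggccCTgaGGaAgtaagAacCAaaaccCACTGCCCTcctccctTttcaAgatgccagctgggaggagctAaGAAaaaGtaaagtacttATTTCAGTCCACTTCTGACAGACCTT
Ly6a2: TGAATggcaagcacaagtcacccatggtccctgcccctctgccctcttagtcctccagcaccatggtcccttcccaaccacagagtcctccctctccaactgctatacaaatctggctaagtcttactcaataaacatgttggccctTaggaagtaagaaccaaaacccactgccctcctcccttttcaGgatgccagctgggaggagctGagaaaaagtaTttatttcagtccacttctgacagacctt

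Ly6c2 and Ly6a2 were 98.4% identical over 245 aligned upstream bases, with 4 differences. Ly6c1 and Ly6c2 were 75.9% identical over 216 bases, although their coding sequences were the closest pair of the family. Motifs were counted on both strands and up to 50 bases past the start. The motif GAGGAA is a core letter string of ETS factors such as PU.1. It occurred once in the window of Ly6c1, 2 times in those of Ly6c2 and Ly6g and not in that of Ly6a2. It was in 28.3% of the 32851 promoter windows of this length. TATAAA occurred once each in Ly6c1 and Ly6g, not in Ly6c2 or Ly6a2, and in 13.6% of all windows. The core of the interferon-stimulated response element (GAAA, any 2 bases and GAAA again), found in 3.44% of all windows, was not in the windows of these 3 members or of Ly6a2. These are matches of letters in the window only.

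Ly6c2 and Ly6e made up almost all of the family's RNA in these cells. Summed over the 8 members, the family had 2462 and 2277 CPM in Ptip_KO against 3938 and 3367 CPM in WT, of which Ly6c2 and Ly6e together held 99.1% to 99.7%. Per kilobase of the longest coding transcript, Ly6c2 was highest, at 1554 ± 142 CPM per kb in Ptip_KO and 2325 ± 254 in WT (SD, n = 2). Ly6e followed at 475 ± 5.48 and 752 ± 89.4 CPM per kb (SD, n = 2). The other 6 lay between 0.115 and 13.2 CPM per kb as group means. Their order in WT was Ly6g, Ly6d, Ly6a, Ly6k, Ly6c1 and Ly6i, and Ly6d overlapped Ly6a, and Ly6a Ly6k, between libraries. Ly6g (7.89 and 18.5 CPM per kb) lay just above Ly6d (3.21 and 6.82), and Ly6k (4.97 and 2.74) above Ly6c1, without overlap. Ly6c1 (1.13 to 1.21 CPM per kb) and Ly6i (0.856 to 0.974) did not overlap each other in WT, but did in Ptip_KO. This order depends on the length used. Per kilobase of all annotated exons, Ly6c1 (0.607 and 0.567) lay below Ly6i (0.974 and 0.856) in WT. By that length the WT mean of Ly6k (3.68) was above that of Ly6a (3.46). Ly6c2 (698) and Ly6e (453) still led, closer to each other. The plot of CPM by library shows this gap between a pair of abundant members and the remainder.

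**Figure D1:**
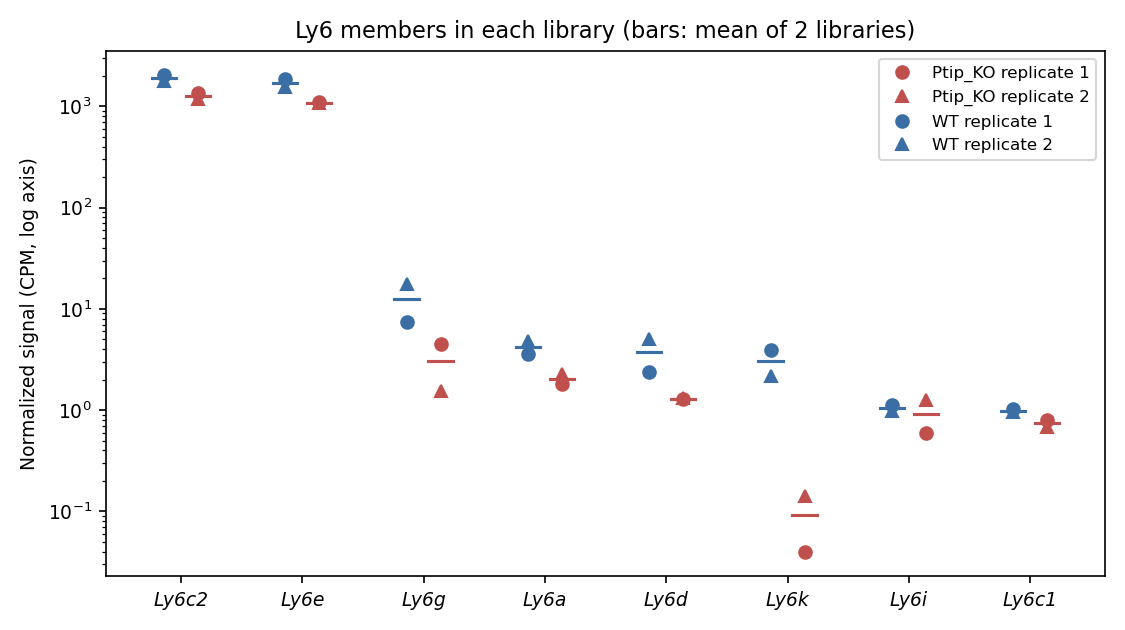
Normalized signal (CPM, log axis) of the 8 Ly6 members in each library, ordered by WT mean; circles and triangles are replicates 1 and 2 and short bars are the means of 2 libraries. Ly6c2 and Ly6e lie between 1075 and 2059 CPM over the 4 libraries, the other 6 at or below 17.4 CPM, and the Ptip_KO points of Ly6k lie at 0.0394 and 0.143 CPM.

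In 7 of the 8 members both Ptip_KO libraries lay below both WT libraries, an arrangement found in 25.2% of all measured genes. Of the 8, 7 members passed the filter on low values (at least 1 CPM in at least 2 libraries) and were tested with limma on log2(CPM + 1), with Benjamini-Hochberg adjustment over 12357 genes. Of those tested, 2 fell (Ly6e and Ly6k), none rose and 5 did not pass the threshold of an adjusted p of 0.05. Over all tested genes 6.29% were called, 3.86% lower and 2.43% higher. The median difference of the 7 tested members was -0.77 on the log2(CPM + 1) scale, against 0.0032 for all tested genes. Ly6k passed the filter only through its WT libraries and so had to differ; the count and the median include it and are a description. At an unadjusted p under 0.05 the number of members was 6, all lower, against 12.5% of tested genes lower at that p. On recovered reads, edgeR called 2 of the 7 lower (background 3.37%) and none higher (1.97%), and DESeq2 called 6 lower (background 9.11%) and none higher (6.31%). Each difference below is on that scale, where the added 1 makes the change of a low gene look smaller than it is.

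**Figure D2:**
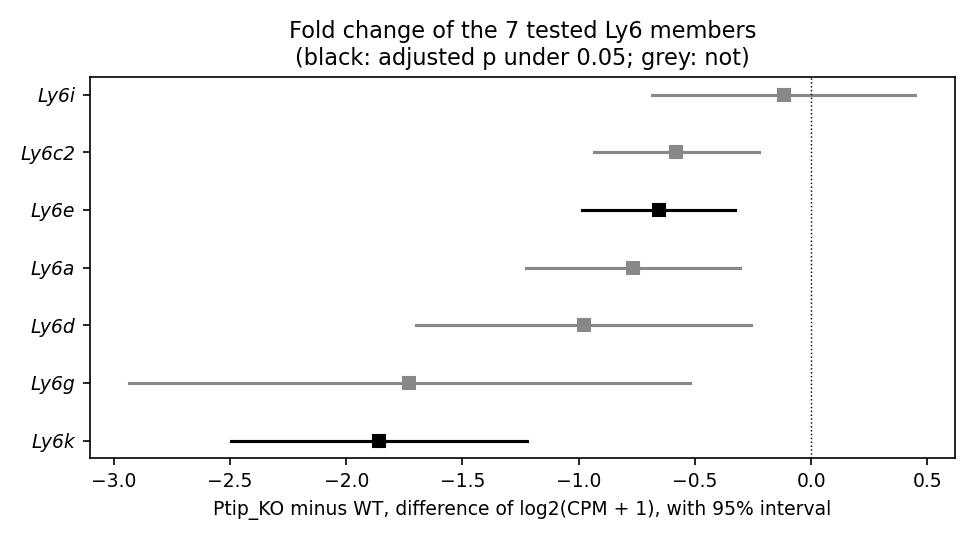
Difference of log2(CPM + 1), Ptip_KO minus WT, with its 95% interval from limma for the 7 tested Ly6 members; black marks an adjusted p under 0.05 and grey the rest. Ly6k (-1.86) and Ly6e (-0.66) are the black points, and the interval of Ly6i alone spans 0.

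Ly6c2 encodes the Ly6C protein that marks the classical, inflammatory monocyte. It had 1360 and 1195 CPM in Ptip_KO against 2059 and 1764 CPM in WT. Both Ptip_KO libraries were below both WT libraries. The difference was -0.58 (SE 0.14, 95% interval -0.93 to -0.22), and its limma adjusted p of 0.0768 missed the threshold. With 1 library left out, the difference was -0.69 without WT replicate 2 and -0.47 without WT replicate 1. It was -0.67 without Ptip_KO replicate 1 and -0.49 without Ptip_KO replicate 2. DESeq2 on all libraries gave an adjusted p of 6.9e-06. Its near-identical copy Ly6c1, which is known from endothelial and lymphoid cells, had 0.801 and 0.685 CPM in Ptip_KO against 1.02 and 0.951 CPM in WT (48 to 75 reads per library). The groups did not overlap, but Ly6c1 did not pass the filter and was not tested. Ly6c2 had 1698 to 2024 times the CPM of Ly6c1 in each library.

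Ly6e, also called Sca-2 or TSA-1, is a broadly expressed member known from immature thymocytes and from viral entry. It had 1093 and 1075 CPM in Ptip_KO against 1860 and 1571 CPM in WT. The groups did not overlap, and the Ptip_KO libraries differed by a ratio of 1.02. Ly6e fell by 0.66 on the log2(CPM + 1) scale (SE 0.13, 95% interval -0.98 to -0.33, limma adjusted p = 0.0479), a WT mean 1.58 times that of Ptip_KO. The call was close to the threshold: the adjusted p was 0.222 without Ptip_KO replicate 1, 0.245 without Ptip_KO replicate 2 and 0.0074 without WT replicate 2. The ratio of Ly6c2 to Ly6e CPM stayed between 1.11 and 1.24 over the 4 libraries.

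Ly6k is best known from the testis, where it takes part in sperm function. It had 0.0394 and 0.143 CPM in Ptip_KO (3 and 10 reads) against 3.93 and 2.17 CPM in WT (290 and 171 reads). It was near the floor of detection in both Ptip_KO libraries and low but clearly counted in both WT libraries. Ly6k fell by 1.86 on the log2(CPM + 1) scale (SE 0.26, limma adjusted p = 0.0197). From the pooled reads per effective library size, WT was 34.0 times Ptip_KO, with a 95% interval of 19.7 to 64.3 that covers counting error only. Since Ly6k entered the test only through its WT libraries, this p is a description.

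Ly6g carries the epitope that defines neutrophils. It had 4.53 and 1.56 CPM in Ptip_KO against 7.42 and 17.4 CPM in WT. WT replicate 2 was the highest library, at 2.35 times the other WT library, and the groups did not overlap. The difference was -1.73 (SE 0.49, limma adjusted p = 0.103), and without WT replicate 2 it was -1.16. Without WT replicate 1 it was -2.29, and without Ptip_KO replicate 1 it was also -2.29. Without Ptip_KO replicate 2 it was -1.17.

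Ly6a encodes Sca-1, the antigen used with Kit to define stem and multipotent progenitor cells in mice. It had 1.80 and 2.26 CPM in Ptip_KO against 3.57 and 4.78 CPM in WT. The groups did not overlap at these low levels (137 to 377 reads per library). The difference was -0.77 (SE 0.19, 95% interval -1.23 to -0.31), with a limma adjusted p of 0.0734. The difference became -0.94 without WT replicate 1 and -0.60 without WT replicate 2. It was -0.66 and -0.88 without Ptip_KO replicate 1 and 2.

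Ly6d is known as a mark of B-lineage commitment among common lymphoid progenitors and is also expressed in keratinocytes. It had 1.27 and 1.33 CPM in Ptip_KO against 2.39 and 5.07 CPM in WT. WT replicate 2 was again the highest, at 2.12 times WT replicate 1. The difference was -0.98 (SE 0.29, limma adjusted p = 0.118), or -0.56 without WT replicate 2 and -1.40 without WT replicate 1. It was -0.963 and -0.996 without Ptip_KO replicate 1 and 2. Ly6i, a close copy of Ly6a, had 0.591 and 1.26 CPM in Ptip_KO against 1.13 and 0.989 CPM in WT. Its groups overlapped. The difference was -0.12, with a 95% interval of -0.68 to 0.45 and a limma adjusted p of 0.803, and it took the other sign (0.13) without Ptip_KO replicate 1.

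Within 1 Mb of the cluster, 43 of 95 annotated genes were in the table, 35 of them not members, and 23 of those 35 were tested. Of these, 2 fell and none rose, against 3.86% lower and 2.43% higher over all tested genes. The median difference of the 23 was -0.04. Gm5960, an unprocessed pseudogene between Ly6c1 and Ly6c2 (chromosome 15, 75071112 to 75074638), had 3.32 and 2.87 CPM in Ptip_KO against 12.2 and 13.4 CPM in WT. It is itself a Ly6-like copy, though not a listed member. Over its whole length it aligned to Ly6a, Ly6c1, Ly6c2, Ly6g and Ly6i, from 78.5% identity (Ly6c2) to 82.7% (Ly6i). Gm5960 fell by 1.75 on the log2(CPM + 1) scale (limma adjusted p = 0.0052). Them6, a thioesterase-superfamily gene upstream of the cluster, fell by 0.82 (limma adjusted p = 0.0186). The difference of Them6 was -0.78 without Ptip_KO replicate 1. Them6 had 9.72 and 10.3 CPM in Ptip_KO against 19.1 and 17.9 CPM in WT. The nearest tested genes outside the members, Lynx1 next to Ly6d and Zfp41 beyond Ly6g, had differences of 0.29 (adjusted p = 0.591) and -0.20 (adjusted p = 0.470).

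I830127L07Rik, the Ly6a2 copy whose upstream sequence is shown above, was singled out after its values were seen. GENCODE annotates it as a transcribed pseudogene at 75131377 to 75135128 on chromosome 15, while RefSeq lists Ly6a2 as protein coding. It had 264 and 216 CPM in Ptip_KO against 475 and 352 CPM in WT, and the groups did not overlap. Per kilobase of its longest transcript it ranked after Ly6c2 and Ly6e and above the other 6 members, at 566 ± 120 CPM per kb in WT (SD, n = 2). Its CPM was 18.1% to 23.1% of that of Ly6c2 in each library. The difference was -0.77 (limma adjusted p = 0.0632). It was -0.99 without WT replicate 2 and -0.56 without WT replicate 1. Without Ptip_KO replicate 1 and 2 it was -0.92 and -0.63. Of the copies with an upstream sequence here, the 2 with nearly identical upstream bases had at least 216 CPM in each library, and Ly6c1 and Ly6g at most 17.4 CPM. Any part of the upstream sequence in these levels was not tested.

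**Figure D3:**
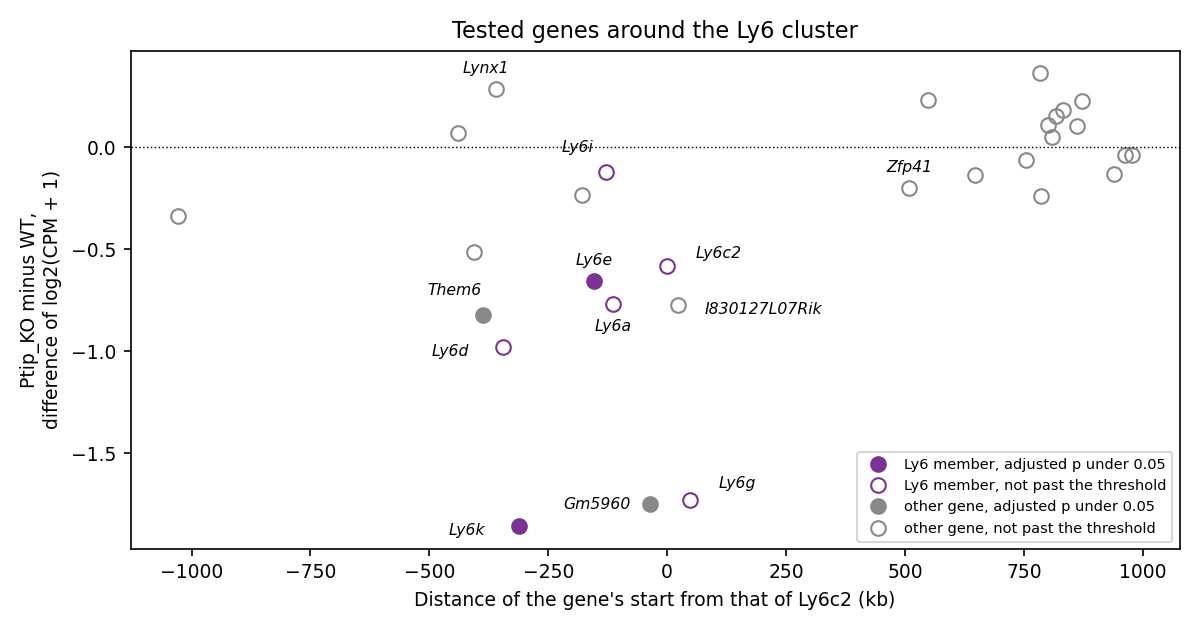
Difference of log2(CPM + 1), Ptip_KO minus WT, of tested genes around the cluster against the distance of their start from that of Ly6c2 (kb); purple marks Ly6 members, grey other genes, and filled points an adjusted p under 0.05. The filled points are Ly6k, Ly6e, Gm5960 and Them6, and the 23 genes that are not members have a median of -0.04.

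Of the Ly6/uPAR superfamily, 42 further genes were listed by symbol, in and outside the cluster. Of these, 9 had a row under that symbol and 4 were tested; Ly6a2 is not among the 9 because its row bears the name I830127L07Rik. Plaur, the urokinase receptor, had 49.3 and 52.7 CPM in Ptip_KO against 94.1 and 93.8 CPM in WT and fell by 0.87 on the log2(CPM + 1) scale (limma adjusted p = 0.0089). Cd177, a neutrophil surface protein, had 154 and 120 CPM in Ptip_KO against 219 and 207 CPM in WT. Its difference was -0.64 (limma adjusted p = 0.0546), or -0.68 without WT replicate 2. Lynx1 and Cd59a, which encodes a complement inhibitor, did not pass the threshold (adjusted p = 0.591 and 0.665). Of 26 measured genes for making and remodelling GPI anchors, on which Ly6 proteins depend, 1 rose and 1 fell, with a median of -0.04. Over all tested genes 2.43% rose and 3.86% fell. Pgap1, which removes a fatty acid from the anchor's inositol, had 5.16 and 4.62 CPM in Ptip_KO against 36.3 and 17.7 CPM in WT and fell (difference -2.17, adjusted p = 0.0231). Pigv, an anchor mannosyltransferase, rose by 0.52 (limma adjusted p = 0.0369), or by 0.50 and 0.54 without Ptip_KO replicate 1 and 2.

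Since Ly6 members serve as markers, they were set beside other genes of the cell types they mark. The background for the limma counts of each list is 3.86% lower and 2.43% higher over all tested genes. Of 18 tested classical monocyte genes other than Ly6c2, 3 fell (Fn1, Cd14 and Vcan) and none rose, with a median of -0.34. On a common sum only Fn1 stayed past the threshold, and with a limma prior robust to outlying variances only Cd14. On recovered reads edgeR called 2 lower, without Vcan, and DESeq2 called 6 lower and 1 higher. The list median was -0.50 without WT replicate 2 and -0.21 without WT replicate 1. Fn1 had 188 and 86.0 CPM in Ptip_KO against 3015 and 1195 CPM in WT (difference -3.89, adjusted p = 0.0187). Ccr2, the chemokine receptor that accompanies Ly6C on these monocytes, had 984 and 721 CPM in Ptip_KO against 1095 and 700 CPM in WT, which overlapped (adjusted p = 0.927). The summed level of the list was 9941 to 13689 CPM in Ptip_KO against 14522 to 22699 CPM in WT. Of 15 tested genes of the non-classical, Ly6C-low monocyte, 6 fell (Cebpb, Itgax, Dusp5, Cd300ld, Treml4 and Cd36) and none rose. The median of the 15 was -0.93, or -1.03 when WT replicate 2 was left out. Cebpb, a transcription factor needed by these cells, had 88.4 and 103 CPM in Ptip_KO against 198 and 194 CPM in WT (adjusted p = 0.0093), while Nr4a1, another such factor, had overlapping groups (adjusted p = 0.668). Ly6c2 was thus lower by value together with genes of both monocyte classes, and any part of the mix of monocyte classes in its difference was not tested.

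Beside Ly6g, 1 of 24 neutrophil and granule genes fell and none rose, with a median of -0.63. Over all tested genes 3.86% fell. The gene that fell was Padi4, a histone deiminase (difference -1.79, limma adjusted p = 0.0064). The list median was -1.07 without WT replicate 1 and -0.28 without WT replicate 2. It was -0.47 without Ptip_KO replicate 1 and -0.69 without Ptip_KO replicate 2. S100a9 had 383 and 216 CPM in Ptip_KO against 714 and 1242 CPM in WT (limma adjusted p = 0.0509). Its difference was -1.71, or -1.31 without WT replicate 2. Retnlg, a secreted product of mature neutrophils, had 87.7 and 31.5 CPM and 171 and 340 CPM (limma adjusted p = 0.0727). The difference of Retnlg was -2.17, or -1.68 without WT replicate 2. Both had the library order of Ly6g, with WT replicate 2 highest and Ptip_KO replicate 2 lowest. The granule gene Mpo did not share it, at 7772 and 8481 CPM in Ptip_KO against 5885 and 8162 CPM in WT (adjusted p = 0.604). The list's sum was 12597 to 13143 CPM in Ptip_KO against 11669 to 17055 CPM in WT, and no marker of it was at 0 in all libraries. The sort kept Mac-1-negative, CD115-positive cells, a gate that should remove mature neutrophils, and their part in the Ly6g difference was not tested.

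Beside Ly6a, 2 of 17 tested stem and multipotent progenitor genes fell and none rose, with a median of -0.15. Over all tested genes 3.86% fell and 2.43% rose. Without WT replicate 2 the list median took the other sign, 0.16, and without WT replicate 1 it was -0.37. Kit, the stem cell factor receptor, had 14.4 and 16.1 CPM in Ptip_KO against 49.5 and 73.1 CPM in WT (difference -1.91, adjusted p = 0.0091), and Flt3 fell by 0.90 (adjusted p = 0.0244). Cd34 went the other way by value, at 288 and 272 CPM in Ptip_KO against 192 and 246 CPM in WT (adjusted p = 0.184). Kit and Flt3 also belong to the osteoclast progenitor list, of whose 13 tested genes 3 fell (with Acp5) and none rose. Beside Ly6d, of 7 tested B and early lymphoid genes Cd22 fell (-1.24, adjusted p = 0.0411) and Cd79b rose (0.71, adjusted p = 0.0454). Neither call held on a common sum or with edgeR. With 1 library left out, the difference of Cd22 lay between -1.54 and -0.93 and that of Cd79b between 0.53 and 0.88. Dntt, the template-free polymerase of early lymphocytes, had 2.98 and 3.07 CPM in Ptip_KO against 5.85 and 17.4 CPM in WT (limma adjusted p = 0.118). Its difference was -1.48, or -0.77 without WT replicate 2. The highest library of Dntt was WT replicate 2, as for Ly6d. The sort left out B220-positive cells, which include most B-lineage cells, and the part of such cells and of stem cells in the Ly6d and Ly6a differences was not tested.

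Of 38 tested interferon-response genes, 3 rose (Oas1a, Ifit2 and Ifih1), 1 fell (Rsad2), and the median was 0.12. Over all tested genes 2.43% rose and 3.86% fell. The list median was 0.03 without Ptip_KO replicate 2 and 0.22 without Ptip_KO replicate 1. It was 0.23 without WT replicate 1 and 0.05 without WT replicate 2. On a common sum 1 rose and none fell, and edgeR called 2 higher and none lower. Oas1a, an RNA-sensing synthetase, had 23.4 and 25.9 CPM in Ptip_KO against 16.2 and 14.96 CPM in WT (limma adjusted p = 0.0347). Its difference was 0.63, or 0.70 and 0.56 without Ptip_KO replicate 1 and 2. Besides the non-classical monocyte list, list medians further below 0 than that of the Ly6 members were those of macrophage genes (7 of 10 tested fell, median -1.45) and erythroid genes (10 of 15 fell, median -1.59), and none of either list rose. Without WT replicate 2 the median was -1.27 for macrophage genes and -1.24 for erythroid genes. On a common sum 4 erythroid genes fell. The macrophage sum was 47.0 to 47.4 CPM in Ptip_KO against 141 to 178 CPM in WT, and the erythroid sum 957 to 1285 CPM and 2403 to 5205 CPM. The part of such cells in the lower Ly6 values was not tested. Of the remaining lists, the plasmacytoid dendritic cell genes had 1 of 13 higher (Tcf4) and none lower, and the T and NK cell, megakaryocyte, basophil and endothelial lists had no call.

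**Figure D4:**
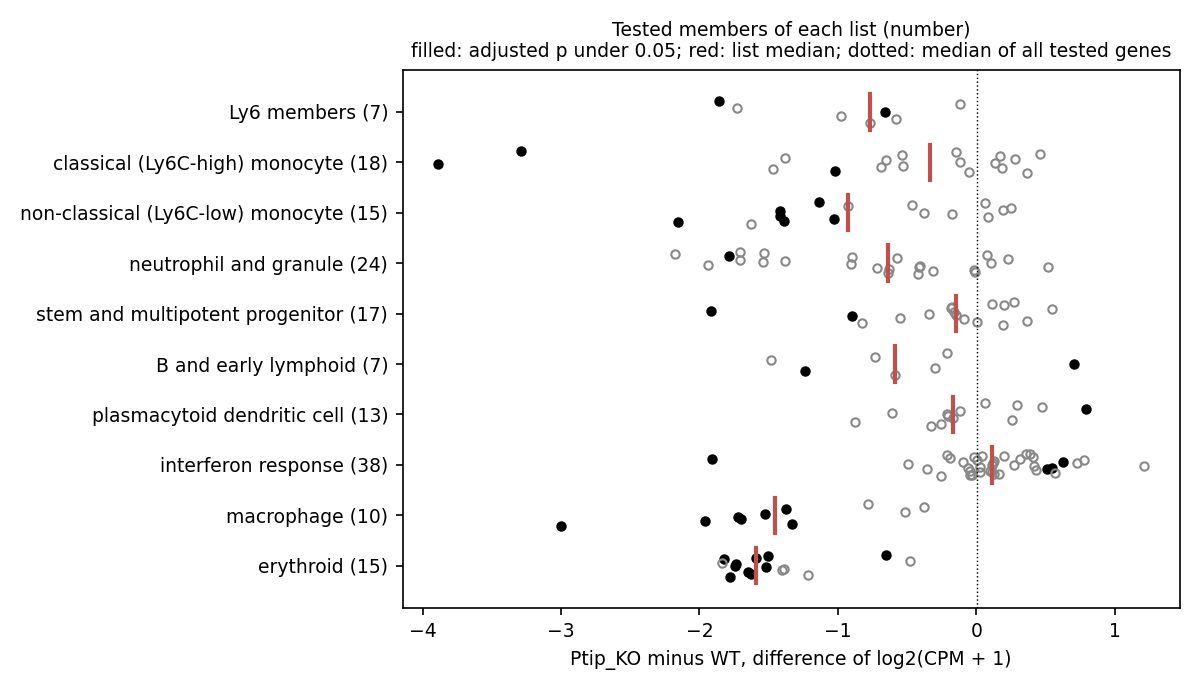
Difference of log2(CPM + 1), Ptip_KO minus WT, of the tested genes of each list (number in brackets); filled points have an adjusted p under 0.05, red bars are list medians and the dotted line is the median of all tested genes. The Ly6 median of -0.77 lies between those of the non-classical monocyte (-0.93) and neutrophil (-0.63) lists, and the interferon-response median is 0.12.

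The genes with the nearest profiles were found among those with a mean of at least 5 CPM, by the root mean square difference of log2(CPM + 1) centred on each gene's mean over the 4 libraries. This is a description over 4 libraries, out of about 9990 candidate genes for each member. The added 1 shrinks the changes of low members most, so their likeness to more abundant genes holds on this scale only. For Ly6c2 they were Plod3, a collagen lysyl hydroxylase, and Ints4, an Integrator subunit (root mean square 0.0198 and 0.0219). For Ly6e they were 9130208D14Rik (0.0322) and Isyna1 (0.0331), which makes inositol phosphate. For Ly6k they were the class II histocompatibility gene H2-Aa (0.0739) and the transcriptional inhibitor Id2 (0.0919). In CPM, without the added 1, the WT mean of Ly6k was 33.5 times that of Ptip_KO. H2-Aa had 6.95 and 7.16 CPM in Ptip_KO against 37.9 and 20.9 CPM in WT, so that WT replicate 1 was highest, as for Ly6k. Ly6g was nearest to Dhrs9 (0.0997) and Slfn4 (0.106), Ly6a to Bcl2l1 (0.0279) and Dhrs11 (0.0391), and Ly6i to 2310061I04Rik (0.0224) and Fzd5 (0.0252). Ly6d was nearest to the erythrocyte enzyme gene Bpgm (0.0484) and the immunoglobulin kappa constant gene Igkc (0.0794), which had 353 and 382 CPM in Ptip_KO against 584 and 1094 CPM in WT.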

How the data were processed

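PolyA RNA of sorted bone marrow cells was sequenced from TruSeq Stranded mRNA libraries, per the labels' protocols. The authors deposited 1 table of normalized signal (CPM on an effective library size, per the file headers) for 4 libraries; the WT_3 column was matched to WT replicate 2 by its sample description. TopHat2 2.0.10, HTSeq 0.6.0, edgeR 3.8.6 and mm10 are named in the submitters' processing notes, with roles and strand setting not given in the sources used here. Whole reads were recovered from the deposited steps (100% of values within 0.01 of a whole number). limma 3.58.1 (R 4.3.3, trended prior, pseudocount 1, filter of 1 CPM in 2 libraries, genotype only) was the main test of 12357 genes and called 777; edgeR 4.0.16 on the recovered reads called 660 and DESeq2 1.42.0 called 1906. The code was tested on simulated data. Positions came from GENCODE M21 (GRCm38), which held the same identifier version for 92.3% of genes; sequence comparison used BLAST 2.17.0. All 8 members are named; other genes are those past the threshold or among the smallest p in each list, markers that define a cell type (such as Ccr2, Nr4a1, Mpo and Cd34), neighbours of the cluster and the 2 nearest profiles. Retnlg and I830127L07Rik were chosen after their values were seen. Members and lists were chosen with earlier results of these data known. Counting intervals are exact at 95% and cover counting error only. Alternatives covered pseudocount, filter, scaling, tool, replicate block, summing of copies and leaving out each library.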

Additional observations from a re-analysis of the deposited data

How the results depend on the processing

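With 2 libraries a group, calls moved with the tool and with single libraries. The 777 genes called became 1906 with DESeq2, and 452 to 1620 with 1 library left out (452 and 476 without Ptip_KO replicate 1 or 2, 1495 and 1620 without WT replicate 1 or 2). The 2 Ly6 members called became 1 with a pseudocount of 5, 1 with no filter, 1 with a filter of 5 CPM (3 members tested), 6 with DESeq2 and 1 to 5 with 1 library left out. The 40 genes called over all lists became 26 on a common sum, 71 with DESeq2 and 37 to 87 with 1 library left out. Of 105 member values under the alternatives, 104 were negative; Ly6i alone took the other sign, at 0.13 without Ptip_KO replicate 1 (range -0.37 to 0.13 with 1 library left out). Among the alternatives that kept all libraries, Ly6e missed the threshold with the pseudocount of 5 (limma adjusted p = 0.0501) and with no filter (0.0878). The causes were not tested beyond the smaller number of members or libraries that some alternatives hold.

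The replicate numbers are not stated to pair the libraries, and same-numbered deviations correlated at 0.33 over only 2 pairs. With the replicate block, 1721 genes, 4 Ly6 members and 69 list genes were called; Ly6c2 (adjusted p = 0.0258) and Ly6a (0.0304) joined Ly6e and Ly6k. Summing the close copies before the fit left the number of called members unchanged. Low counts limit Ly6c1, Ly6i and, in Ptip_KO, Ly6k.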
